A study of Homo sapiens with 30 samples.

Results

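The genes of the general transcription machinery were followed in 22Rv1, an established human cell line from a castration-resistant prostate tumour, while CDK9 was inhibited. Members were the genes with messenger RNA rows in the deposited table whose symbol is TAF followed by a digit, or starts with GTF2 or GTF3, together with TBP, ERCC2 and ERCC3. The rule found 52 of 22368 genes with a symbol, and it used no measured value. Of the 52, 42 had enough reads for a test of level among 11401 genes tested. GTF2A1L, GTF2H2 and TAF7L had no read in any library. GTF2H2C, GTF2I, GTF2IRD2, GTF2IRD2B, TAF13, TAF1L and TAF3 had reads but too few to be tested. GTF2H2 and GTF2H2C are near-identical copies, so reads between them are uncertain.

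RNA polymerase II cannot find a promoter alone. TFIID, made of TBP and the TAF proteins, recognises the promoter. TFIIA steadies TBP on DNA, and TFIIB bridges it to the polymerase, which arrives with TFIIF. TFIIE and TFIIH follow, and TFIIH opens the DNA with its helicase subunits. RNA polymerase I uses SL1, which is TBP with its own TAF proteins, and RNA polymerase III uses TFIIIA and TFIIIC. CDK9 acts after these factors: as the kinase of P-TEFb it releases paused RNA polymerase II into elongation.

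The assay was SLAM-seq, in which 4-thiouridine (s4U) taken up by cells marks new RNA. Iodoacetamide then alkylates the s4U, and reads of labelled RNA carry T-to-C conversions. Every culture was first labelled with s4U at 800 µM for 30 min, and the 0 h libraries come from cells taken at that point without a compound. The rest got new medium, again with s4U at 800 µM, that carried the solvent DMSO or a CDK9 inhibitor, KB742 at 1.2 µM or KI-ARv-03 at 4 µM. These cells were taken 2, 4 or 8 h later. That made 10 groups of 3 libraries, 30 in all, from 1 cell line. The labels do not say that replicates came from separate cultures, so p-values measure only the spread between libraries, which may be technical. The compounds were given at different doses, so their values stand side by side and were not compared with each other. Both were compared with the same DMSO libraries. The titles were followed where another label field gives a different time, as it does for 8 of the 9 libraries titled 4 h. The title's Karv3 was taken as KI-ARv-03, and a treatment field that reads as a higher KB742 dose was set aside for the protocol's dose.

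The libraries held 3376884 to 9265131 reads, of which 1410450 to 3960532 lay on the genes kept. Level is given as rescaled CPM, the reads of a gene relative to the library's reads on the genes kept, after TMM scaling. It is a share of the library, so more RNA of a gene and less RNA of the others cannot be told apart. Libraries were read from the 3′ ends of transcripts, and levels of different genes were not compared with each other. The luminal prostate markers KLK2, KLK3, HOXB13, FOXA1, KRT8 and KRT18 were present in every library, with medians from 15.7 rescaled CPM for KLK3 to 182 for KRT18. Basal markers summed to at most 1.26, endothelial markers to at most 0.399, immune markers to at most 4.30 and stromal markers to at most 24.0. Replicate 3 at 0 h and replicate 2 of KB742 at 2 h stood apart, with mean correlations to their own groups of 0.878 and 0.869. Mean conversion in replicate 1 of KI-ARv-03 at 4 h was 1.17%, against 0.374 and 0.416% in its group mates. Counts below that these libraries change are given with and without them.

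The promoters of 4 members are shown because their genes are among those whose levels moved most in the comparisons below. GTF2A1 and TAF4B were the genes called with both compounds, ERCC3 was called with KI-ARv-03, and GTF2B fell furthest with time. Each line gives the 150 bases before the gene's start, 5′ to 3′ on the gene's strand, from RefSeq on GRCh38.p14. Capitals mark the motifs searched: the ETS core CCGGAAG, in either orientation, in GTF2A1 and ERCC3, and the TATA box TATAAA in GTF2B. In TAF4B they mark the CRE, which reads TGACGTCA, the CCAAT box and, last, the GC box, which reads GGGCGG. The regions are chr14:81221391-81221540 on the minus strand for GTF2A1, chr18:26226295-26226444 on the plus strand for TAF4B, chr2:127294145-127294294 on the minus strand for ERCC3 and chr1:88891568-88891717 on the minus strand for GTF2B.
GTF2A1: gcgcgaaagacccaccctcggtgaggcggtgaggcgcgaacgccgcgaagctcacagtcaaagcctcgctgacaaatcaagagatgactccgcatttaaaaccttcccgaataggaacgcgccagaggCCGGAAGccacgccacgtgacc
TAF4B: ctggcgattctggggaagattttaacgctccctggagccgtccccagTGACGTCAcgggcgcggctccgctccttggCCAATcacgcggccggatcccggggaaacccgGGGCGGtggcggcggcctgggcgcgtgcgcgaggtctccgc
ERCC3: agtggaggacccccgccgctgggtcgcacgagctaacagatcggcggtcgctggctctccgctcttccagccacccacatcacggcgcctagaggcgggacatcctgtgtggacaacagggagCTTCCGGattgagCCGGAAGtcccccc
GTF2B: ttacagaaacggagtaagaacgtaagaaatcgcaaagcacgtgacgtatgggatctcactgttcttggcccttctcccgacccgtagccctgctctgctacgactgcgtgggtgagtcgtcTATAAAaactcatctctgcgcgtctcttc

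The ETS core began 22 bases before the start in GTF2A1, and 27 and 14 bases before it in ERCC3. TATAAA began 29 bases before the start of GTF2B. In TAF4B, outside the bases shown, TATAAA began 7 bases after the start and a further CCAAT 45 bases after it. TAF4B is thus among the 3 members counted with TATAAA below. RefSeq promoters, 250 bases before to 50 after the start, were found for 44 of the 52 members. Searched on both strands, CCGGAAG was in 22 of the 44 (50%), against 10.7% of 27305 promoters. Among genes tested in level it was in 18 of 38 members with a promoter (47.4%) and in 20.3% of 9301 promoters. TATAAA was in 3 of the 44 (6.82%), against 12.0% of all promoters. GGGCGG was in 24 (54.5%), against 44.6%, CCAAT in 17 (38.6%), against 35.7%, and TGACGTCA in 3 (6.82%), against 1.98%. Among genes tested in level the directions for TATAAA and GGGCGG turned: TATAAA was in 7.89% of the 38 members and 4.999% of all 9301 promoters, and GGGCGG in 57.9% and 71.7%. There CCAAT was in 44.7% and 37.5%, and TGACGTCA in 7.89% and 3.30%. The median GC content was 60.8% in members and 58.3% in all promoters. A match describes letters in a window and was not tested as a site.

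The first comparison asked how the machinery's genes changed in level with DMSO over 8 h, the background for both compounds. Between 0 h and 8 h TFIIB, TBP, several TAF genes, TFIIE and parts of TFIIIC were lower, while TAF10, TAF15, TAF6 and GTF3A were higher. Calls were made in limma where p, adjusted by Benjamini-Hochberg over all 11401 genes, was under 0.05. At 8 h, 23 of 42 members were called (54.8%), against 49.3% of all genes tested. Of these, 15 were lower and 8 higher, against 29.2% and 20.1% of all genes. The median log2 difference was −0.68 over the 42 members and −0.15 over all genes. At 4 h 8 of 42 were lower and 4 higher, against 14.6% and 5.75% of all genes, 20.4% in all. At 2 h 2 were lower, against 2.71% of all genes, and none was higher, with 2.8% of all genes called in either direction. Time, the medium change and longer s4U exposure moved together here and cannot be told apart.

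The higher calls depended on the scaling. With library-size scaling the median of all genes moved by −0.73 at 8 h and with the deposited scaling by −0.58. Members then split into 2 higher and 25 lower, or 1 higher and 22 lower. All genes tested split into 468 higher and 5219 lower, or 434 higher and 4905 lower. Over all genes tested the share of calls that were higher fell from 40.7% to 8.23% or 8.13%. At 4 h the median moved by −0.34 or −0.38, members split into 0 higher and 12 lower under both, and the share of calls that were higher went from 28.2% to 4.69% or 2.35%. All genes tested split there into 123 higher and 2502 lower, or 66 higher and 2737 lower. All 15 genes called lower at 8 h were also called lower under both other scalings. TAF11, TAF12, TAF5L, TAF6L, TAF1A, GTF3C2 and GTF2H4, not called under TMM scaling, were called lower at 8 h under both (log2 differences of −1.18 to −1.94). GTF2F1 (−0.77), GTF2H3 (−0.89) and GTF3C5 (−1.28) were called lower there with library-size scaling. At 4 h TAF1, TAF4B, ERCC3 and TAF11 were called lower under both other scalings, and TAF10, TAF6, TAF9B and GTF2A2 lost their higher call under both. Calls described below are under TMM scaling, and the scaling under which a rise at 8 h is lost is named.

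**Figure D1:**
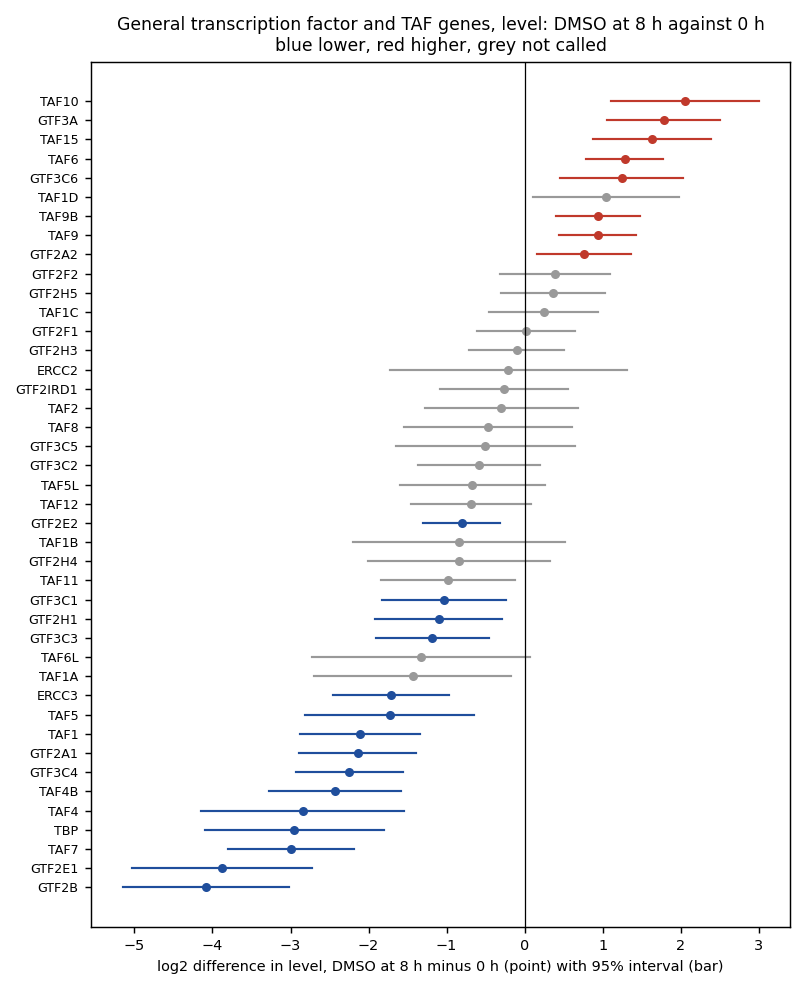
Log2 difference in level, DMSO at 8 h minus 0 h, for the 42 members tested, 3 libraries a group, with 95% intervals as bars. The 15 blue genes were called lower and the 8 red genes higher under TMM scaling; of the red genes TAF10 was also called under deposited scaling, TAF10 and GTF3A under library-size scaling, and GTF2A2 turned to −0.04 under library-size scaling.

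TFIID, the complex that recognises the promoter, had 12 of its 14 members tested. Of these 12, 5 fell and 3 rose by 8 h, against 29.2% and 20.1% of all genes. TBP, its DNA-binding subunit, was at 8.85, 11.2 and 17.1 rescaled CPM at 0 h and at 0, 0 and 3.70 with DMSO at 8 h. TBP was lower in each 8 h library than in any 0 h library, by −2.95 ± 0.56 (log2 difference ± SE, adjusted p = 0.000122). TAF1, the scaffold subunit that also binds acetylated histones, was at 20.1, 30.2 and 52.7 at 0 h and at 8.72, 5.04 and 6.47 at 8 h. TAF1 fell by 2.11 ± 0.37 (adjusted p = 5.57e-05), and its highest 0 h value came from the library that stood apart.

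TAF7, which binds TAF1, was at 78.1, 81.2 and 78.7 rescaled CPM at 0 h. With DMSO it was at 53.7, 72.3 and 47.0 at 2 h, 20.6, 24.3 and 32.7 at 4 h, and 9.34, 16.7 and 4.62 at 8 h. TAF7 fell in steps whose libraries did not overlap from one time to the next, and the log2 difference reached −2.99 ± 0.40 at 8 h (adjusted p = 1.46e-06). TAF4 was also lower at 8 h, by −2.85 ± 0.63 (adjusted p = 0.000629), and TAF5, the propeller-domain subunit, by −1.73 (adjusted p = 0.00843). TAF4 held at most 12.9 rescaled CPM and TAF5 at most 10.2 at 0 h, so few reads lay behind both.

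TAF10, a histone-fold subunit shared with the SAGA coactivator, was at 61.7, 60.8 and 68.8 rescaled CPM at 0 h and at 171, 339 and 327 with DMSO at 8 h. TAF10 rose by 2.05 ± 0.46 (adjusted p = 0.000734), and by 1.29 with the deposited and 1.25 with library-size scaling, still called. TAF6, the histone-fold partner of TAF9, was at 43.0, 44.5 and 28.8 at 0 h and at 90.9, 109.7 and 83.2 at 8 h. TAF6 rose by 1.28 ± 0.24 (adjusted p = 0.000114), a call lost under both other scalings. TAF9 rose by 0.93 (adjusted p = 0.00227), also lost under both. TAF2, TAF8, TAF11 and TAF12 were not called under TMM scaling, and TAF12 was called lower without the 3 libraries that stood apart (−1.36, adjusted p = 0.000907).

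Among the TFIID paralogs, TAF4B, the relative of TAF4, was at 21.7, 16.3 and 12.0 rescaled CPM at 0 h and at 5.61, 1.55 and 0.925 with DMSO at 8 h. TAF4B was lower in every 8 h library, by −2.43 ± 0.41 (adjusted p = 3.77e-05). TAF9B rose by 0.94 (adjusted p = 0.00452) under TMM scaling and was not called under the others. TAF15, an RNA-binding protein of the FET family found with some TFIID, was at 152, 148 and 103 at 0 h and at 387, 586 and 308 at 8 h. TAF15 rose by 1.63 ± 0.37 (adjusted p = 0.000789) without overlap, a call lost under both other scalings. The SAGA subunits TAF5L and TAF6L and the SL1 subunits TAF1A, TAF1B, TAF1C and TAF1D were not called under TMM scaling.

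GTF2B, the single gene of TFIIB, was at 28.1, 34.3 and 12.7 rescaled CPM at 0 h, 8.77, 16.3 and 13.3 with DMSO at 2 h, 0.492, 5.98 and 3.42 at 4 h, and 0.623, 0.775 and 0 at 8 h. Only 1, 2 and 0 reads lay behind the 8 h values. GTF2B fell by 4.09 ± 0.52 on the log2(CPM + 1) scale (adjusted p = 9.06e-07), which understates the change of a gene near 0. It was the lowest of all 42 members in log2 difference at 8 h. In TFIIA, GTF2A1, which encodes the large precursor, was at 34.5, 51.6 and 34.3 at 0 h and at 10.6, 10.9 and 4.62 at 8 h. GTF2A1 fell by 2.14 ± 0.36 (adjusted p = 3.77e-05), with no overlap. GTF2A2, the small TFIIA subunit, was 0.75 higher (adjusted p = 0.0345) with overlapping groups, and −0.04 with library-size scaling.

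GTF2E1, the large subunit of TFIIE, was at 26.6, 23.7 and 25.7 rescaled CPM at 0 h and already at 5.48, 5.05 and 3.20 with DMSO at 2 h. It was at 2.46, 0.798 and 2.66 at 4 h and at 1.25, 1.55 and 0 at 8 h. GTF2E1 fell by 2.26 at 2 h (adjusted p = 0.0241) and by 3.88 ± 0.56 at 8 h (adjusted p = 5.12e-06). Its partner GTF2E2 was lower by −0.81 at 8 h (adjusted p = 0.00727). Neither TFIIF gene was called under TMM scaling: GTF2F1 was at 0.01 and GTF2F2 at 0.39 in log2 difference.

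In TFIIH, 2 of 6 genes tested were lower at 8 h under TMM scaling and none was higher, against 29.2% and 20.1% of all genes. ERCC3, the XPB helicase that opens the promoter, was at 14.6, 12.4 and 23.1 rescaled CPM at 0 h and at 6.23, 4.26 and 2.77 with DMSO at 8 h. ERCC3 fell by 1.71 ± 0.36 (adjusted p = 0.000399). ERCC2, the XPD helicase of DNA repair, was at 6.41, 7.96 and 5.20 at 0 h and at 8.72, 3.88 and 4.62 at 8 h. The ERCC2 groups overlapped, and the log2 difference of −0.21 ± 0.74 (adjusted p = 0.828) could not be told from 0 at this depth. The other lower gene was the core subunit gene GTF2H1, by −1.10 (adjusted p = 0.0233).

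All 7 genes of TFIIIA and TFIIIC were tested, and 3 fell and 2 rose at 8 h, against 29.2% and 20.1% of all genes. GTF3C4, a TFIIIC subunit, was at 72.9, 67.1 and 88.8 rescaled CPM at 0 h, 23.7, 23.3 and 29.9 with DMSO at 2 h, 15.7, 8.38 and 11.4 at 4 h, and 9.34, 22.1 and 16.6 at 8 h. GTF3C4 fell by 1.54 at 2 h (adjusted p = 0.00955) and by 2.25 ± 0.33 at 8 h (adjusted p = 6.97e-06), with its lowest values spread over 4 and 8 h. GTF3C3 was lower by −1.18 (adjusted p = 0.00712) and GTF3C1 by −1.03 (adjusted p = 0.0299), the latter with overlap.

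GTF3A, the zinc-finger factor TFIIIA, was at 136, 110.0 and 56.9 rescaled CPM at 0 h and at 390, 433 and 209 with DMSO at 8 h. GTF3A rose by 1.78 ± 0.35 (adjusted p = 0.000213), and by 0.98 with library-size scaling, but was not called with the deposited scaling. GTF3C6 rose by 1.24 (adjusted p = 0.00925), a call lost under both other scalings. GTF2IRD1, the tested gene of the TFII-I family, was called lower at 4 h (−1.14, adjusted p = 0.0419) and not at 8 h. Without the 3 libraries that stood apart 23 members were called at 8 h: GTF3C1 and GTF2A2 lost the call, and TAF12 and GTF3C2 were called lower. At 4 h 10 were called, with TAF9B and GTF2A2 lost, and at 2 h 1, with GTF2E1 lost. At 2 h, leaving out any single library of the compared groups also left 1 of the 2 calls. These counts without libraries have no share of all genes beside them and do not set members against other genes.

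**Figure D2:**
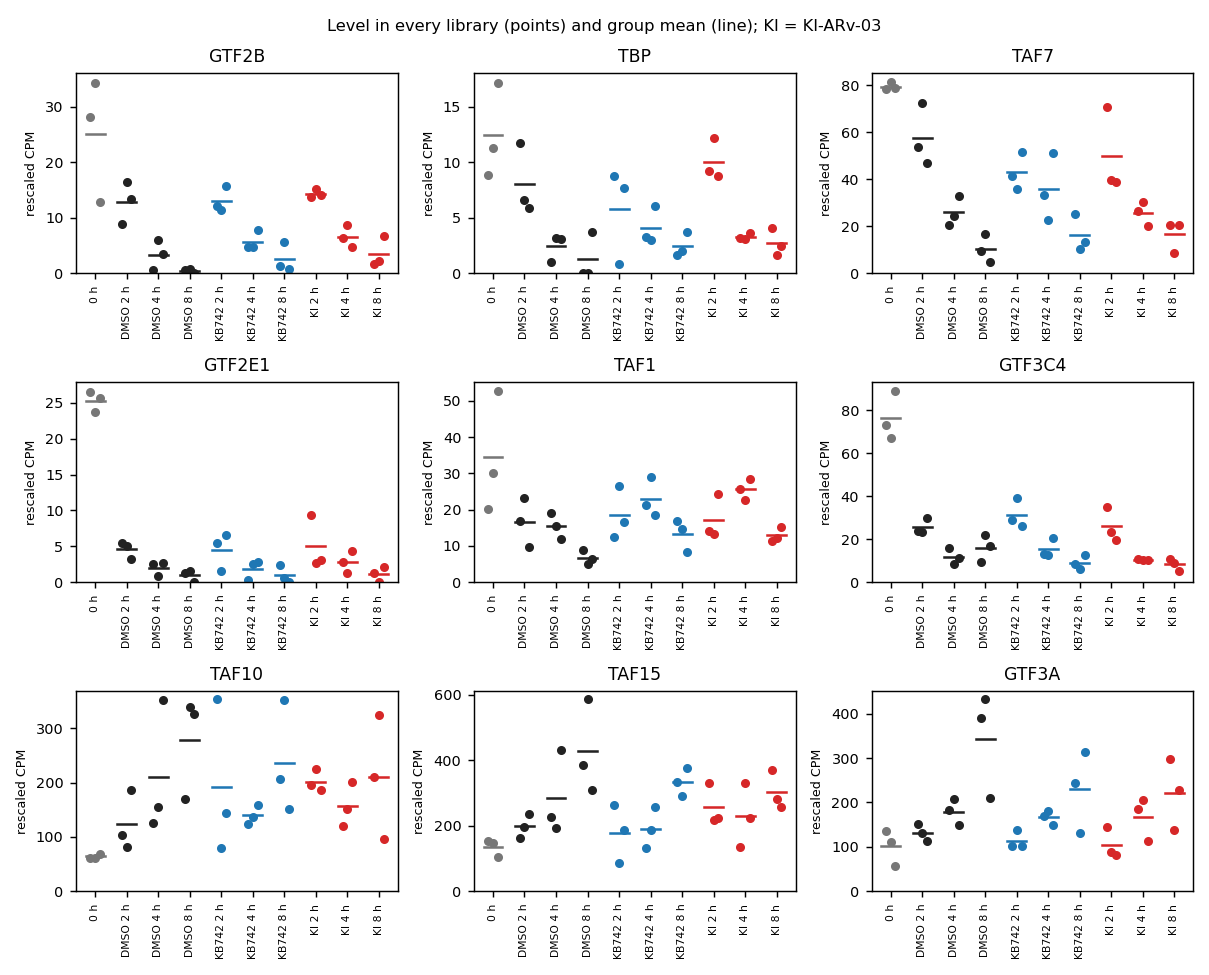
Level in rescaled CPM (vertical axes, each from 0) of 9 members in all 30 libraries, as points, with group means as lines, over the 10 groups. GTF2B, TBP, TAF7, GTF2E1, TAF1 and GTF3C4 sit lower with DMSO at 8 h than at 0 h, while TAF10, TAF15 and GTF3A sit higher, with TAF15 not called under the other scalings and GTF3A not under the deposited scaling.

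The second comparison asked which of these levels differed with a CDK9 inhibitor. At 8 h GTF2A1 of TFIIA and TAF4B, the TAF4 relative, were higher with each compound than with DMSO, and ERCC3 and GTF3C3 were higher with KI-ARv-03. No member was called lower with either compound at any time. With KB742 at 8 h 2 of 42 members were called (4.76%), against 1.77% of all genes tested, of which 1.25% were higher. With KI-ARv-03 4 were called (9.52%), against 2.86%, of which 1.94% were higher. The median log2 difference of the members was 0.09 with KB742, against −0.02 over all genes, and 0.23 with KI-ARv-03, against 0.00. The other scalings moved the median of all genes by 0.22 or 0.28 with KB742 and by 0.18 or 0.25 with KI-ARv-03, and called 3 and 5 members, all higher. Of all genes tested they called 343 higher and 44 lower, or 209 higher and 29 lower, with KB742. With KI-ARv-03 they called 374 higher and 69 lower, or 290 higher and 39 lower. The KB742 count was 0 without replicate 3 of DMSO or replicate 1 or 2 of KB742, and 1 without replicate 2 of DMSO or replicate 3 of KB742. The KI-ARv-03 count was 1 without replicate 3 of DMSO or replicate 1 or 3 of KI-ARv-03. No share of all genes is given beside these counts without a library, so they do not set members against other genes. Under the other scalings the share of all calls that were higher rose from 70.3% to 88.6% or 87.8% with KB742, and from 67.8% to 84.4% or 88.1% with KI-ARv-03.

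At 2 and 4 h limma called no member in level. At 2 h 0 of 42 members with KB742 and 1 with KI-ARv-03 had an unadjusted p under 0.05, and at 4 h 4 and 1 did. Over all 11401 genes the numbers were 352 and 340 at 2 h and 548 and 449 at 4 h. The edgeR and DESeq2 tests on recovered reads also called 0 members at both times. Of all genes, 0.0263% were called with each compound at 2 h, 0.114% with KB742 at 4 h and 0.0614% with KI-ARv-03 at 4 h. The difference between a compound's 8 h and 2 h effects was called for no member in level by limma, edgeR or DESeq2, against 0.00877% of all genes. For it 5 of 42 members with KB742 and 4 with KI-ARv-03 had an unadjusted p under 0.05, against 691 and 759 of all 11401 genes.

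GTF2A1 was at 34.2, 24.6 and 19.3 rescaled CPM with KB742 at 8 h and at 25.1, 33.3 and 40.1 with KI-ARv-03, against 10.6, 10.9 and 4.62 with DMSO and 34.5, 51.6 and 34.3 at 0 h. Every compound library lay above every DMSO library at 8 h. The difference was 1.52 ± 0.36 with KB742 (adjusted p = 0.0243, 95% interval 0.77 to 2.27) and 1.86 ± 0.36 with KI-ARv-03 (adjusted p = 0.00443, 1.11 to 2.61). GTF2A1 was the member that edgeR also called with KI-ARv-03. With KB742 its adjusted p in edgeR was 0.0595. The KB742 call was also lost without replicate 3 of DMSO (1.22, adjusted p = 0.1995), replicate 1 of KB742 (1.32, adjusted p = 0.136) or replicate 2 of KB742 (1.55, adjusted p = 0.0589).

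TAF4B was at 8.44, 10.6 and 11.2 rescaled CPM with KB742 at 8 h, above all DMSO libraries at 5.61, 1.55 and 0.925. The difference was 1.78 ± 0.41 (adjusted p = 0.0204, 95% interval 0.93 to 2.64). With KI-ARv-03 TAF4B was at 11.3, 5.28 and 8.28, which overlapped DMSO, and the difference was 1.49 ± 0.41 (adjusted p = 0.0475). The KB742 call was lost on leaving out any library but replicate 1 of DMSO, with differences of 1.47 to 1.90 and adjusted p of 0.0548 to 0.162. The KI-ARv-03 call was lost without replicate 2 or 3 of DMSO or replicate 1 or 3 of KI-ARv-03, with differences of 1.20 to 1.47 and adjusted p of 0.104 to 0.224. It was also lost with the deposited scaling (1.23, adjusted p = 0.0608). The adjusted p in edgeR was 0.0817 with KB742 and 0.110 with KI-ARv-03.

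ERCC3 was at 10.9, 14.8 and 14.9 rescaled CPM with KI-ARv-03 at 8 h, above DMSO at 6.23, 4.26 and 2.77, and at 9.65, 7.54 and 5.20 with KB742, which overlapped DMSO. The difference was 1.46 ± 0.36 with KI-ARv-03 (adjusted p = 0.0262, 95% interval 0.71 to 2.21) and 0.66 with KB742 (adjusted p = 0.432). With KI-ARv-03 the adjusted p of ERCC3 was 0.0551 in edgeR. The call was lost without replicate 3 of DMSO (1.30, adjusted p = 0.126) and without replicate 1 (1.60, adjusted p = 0.0524) or 3 (1.39, adjusted p = 0.125) of KI-ARv-03.

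GTF3C3, a TFIIIC subunit with tetratricopeptide repeats, was at 41.7, 29.1 and 41.8 rescaled CPM with KI-ARv-03 at 8 h and at 21.2, 23.7 and 6.47 with DMSO, without overlap. With KB742 it was at 39.8, 13.6 and 31.2, on both sides of the DMSO values. The difference was 1.25 ± 0.35 with KI-ARv-03 (adjusted p = 0.0499) and 0.74 with KB742 (adjusted p = 0.343). Without the low replicate 3 of DMSO the KI-ARv-03 difference was 0.78 (adjusted p = 0.273), without replicate 1 or 3 of KI-ARv-03 it was 1.17 (adjusted p = 0.154 and 0.1999), and without the 3 libraries that stood apart the adjusted p was 0.0528. Without those 3 libraries KB742 at 8 h had 3 members called, GTF2E2 included, and KI-ARv-03 3.

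**Figure D3:**
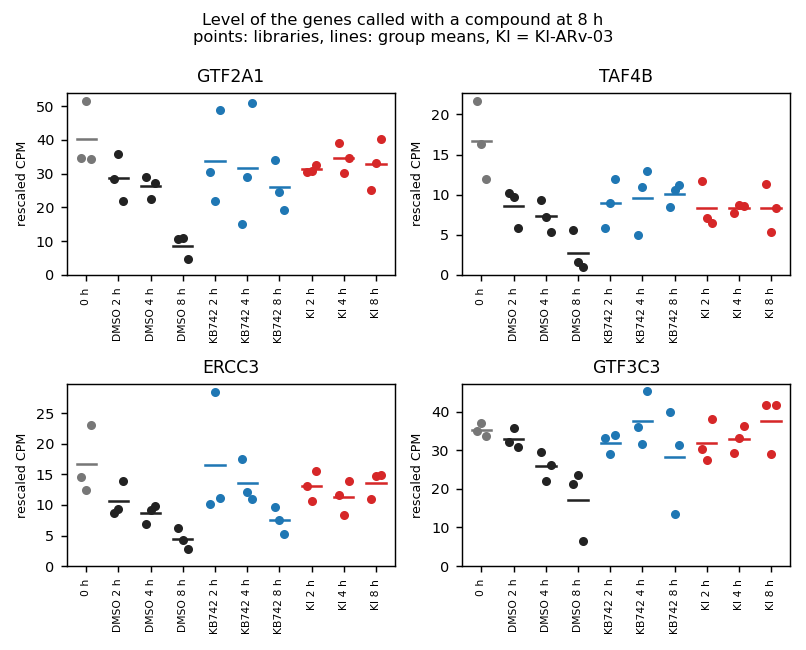
Level in rescaled CPM (vertical axes, each from 0) of the 4 genes called with a compound at 8 h, in all 30 libraries as points with group means as lines. All DMSO libraries at 8 h lie below the compound libraries for GTF2A1, while TAF4B with KI-ARv-03 and ERCC3 and GTF3C3 with KB742 overlap DMSO.

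GTF2B, TBP and TAF1, which also fell with time, were not called with a compound at 8 h. GTF2B was at 1.21, 5.53 and 0.744 rescaled CPM with KB742 and at 1.62, 2.11 and 6.62 with KI-ARv-03 at 8 h. These values lay below every 0 h library of GTF2B (28.1, 34.3 and 12.7), as the DMSO values did. The KI-ARv-03 values also lay above every DMSO value at 8 h (0.623, 0.775 and 0), with a difference of 1.48 that was not called (adjusted p = 0.118), while the KB742 values overlapped DMSO. TBP at 8 h was at 1.61, 2.01 and 3.72 with KB742 and at 4.05, 1.58 and 2.48 with KI-ARv-03, overlapping DMSO. TAF1 was at 16.9, 14.6 and 8.18 with KB742 and at 11.3, 12.1 and 15.3 with KI-ARv-03, the latter all above DMSO at 8.72, 5.04 and 6.47 but not called. ERCC2 was at 1.21, 2.51 and 12.6 with KB742 and at 0.810, 5.81 and 3.31 with KI-ARv-03. A difference that was not called was not shown to be absent. Over all genes the 95% interval of a log2 difference with KB742 at 8 h reached a median of 0.866 to either side. Intervals of genes with few reads were wider. With KI-ARv-03 at 8 h they ran from 0.41 to 2.54 for GTF2B, −0.06 to 2.24 for TBP and −2.29 to 0.74 for ERCC2, and from 0.10 to 1.63 for TAF1. These intervals are not adjusted for the number of genes.

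**Figure D4:**
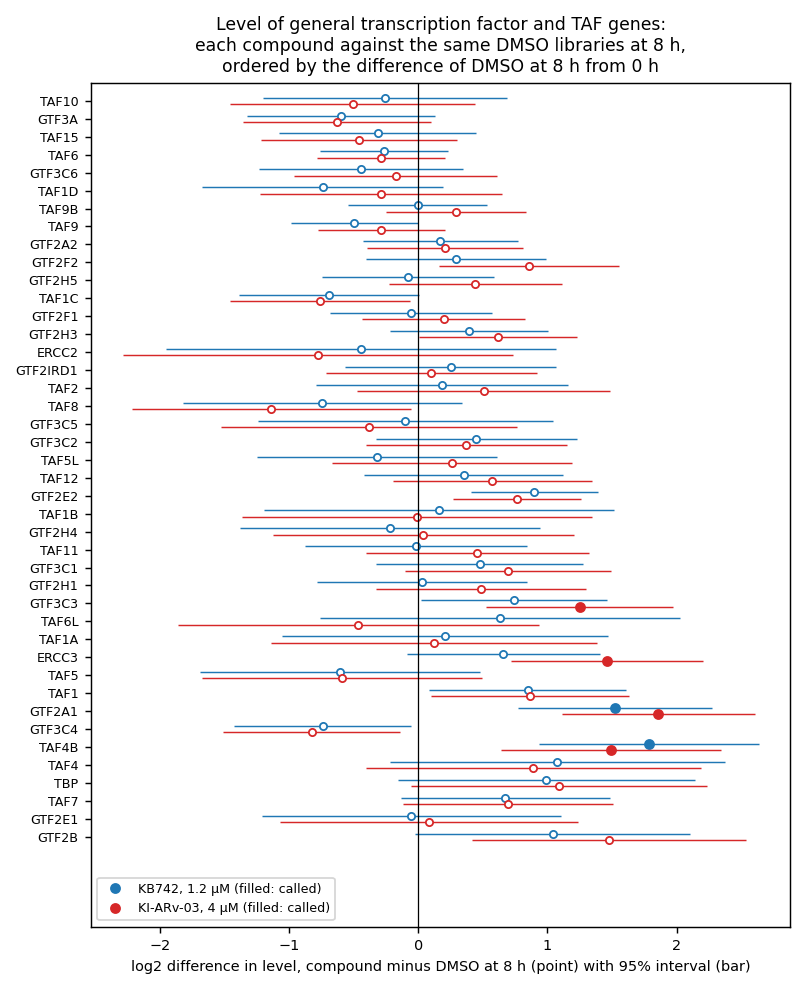
Log2 difference in level from DMSO at 8 h for the 42 members tested, with 1.2 µM KB742 in blue and 4 µM KI-ARv-03 in red, 95% intervals as bars and called genes filled, in the order of the DMSO change from 0 h to 8 h. The filled points are GTF2A1 and TAF4B for both compounds and ERCC3 and GTF3C3 for KI-ARv-03, and both sets share the same DMSO libraries.

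The third measure was conversion, the deposited fraction given here in percent, a measure that grows while new, labelled RNA takes the place of old RNA. Its denominator is not in the table. Over all reads it was 0.340% ± 0.0581 (SD, n = 3) at 0 h and 0.766 ± 0.121, 1.05 ± 0.0715 and 1.16 ± 0.298 with DMSO at 2, 4 and 8 h. With KB742 it was 0.423 ± 0.0759, 0.403 ± 0.0951 and 0.382 ± 0.0315, and with KI-ARv-03 0.390 ± 0.0211, 0.653 ± 0.448 and 0.332 ± 0.0591. A test needed 2 or more values in each group, each behind 20 or more reads. That left 34, 31 and 23 members for DMSO against 0 h at 2, 4 and 8 h. GTF2B had too few reads at 4 and 8 h, and TBP at all 3 times.

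With DMSO, conversion rose for 4 members at 2 h, against 8.28% of all genes, for 7 at 4 h, against 34.4%, and for 9 at 8 h, against 42.6%. A single member was lower, at 4 h, against 0.0256% of all genes. The share of members called either way was 11.8%, 25.8% and 39.1%, against 8.32%, 34.4% and 42.6%. With values weighted by reads 4, 8 and 8 members were called. The median rise at 8 h was 0.601 percentage points over the members and 0.621 over all genes. Without the 3 libraries that stood apart 4, 6 and 10 members were called. The share of all genes called with weighting or without these libraries is not given here. At 2 h the count was 2 without replicate 2 or 3 at 0 h or replicate 3 of DMSO, at 4 h it was 5 without replicate 1 or 2 of DMSO, and at 8 h it was 5 without replicate 2 of DMSO. The 1 lower gene, TAF2, the TFIID subunit that contacts the start site, rested on the 0 h replicate that stood apart: it was at 0.170, 0.238 and 3.03% at 0 h and at 0 in all DMSO libraries at 4 h. Without that library and the other 2 its difference was −0.204 points (adjusted p = 0.199).

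GTF3C4 and TAF7 fell in level with DMSO while their conversion rose at each time. GTF3C4 was at 0.836, 0.755 and 0.453% conversion at 0 h, at 7.51, 4.79 and 7.46% with DMSO at 2 h and at 14.98, 18.4 and 9.85% at 4 h, and 1 library with enough reads at 8 h was at 32.9%. TAF7 was at 0.542, 0.186 and 0.251% at 0 h, 2.42, 2.86 and 2.10% at 2 h, 5.69, 4.33 and 5.90% at 4 h and, in 1 library, 12.9% at 8 h. For both genes the libraries of each later time lay above those of the earlier one. The rise to 4 h was 13.7 points for GTF3C4 (adjusted p = 1.55e-07) and 4.98 for TAF7 (adjusted p = 8.21e-06). TAF8, a TFIID histone-fold subunit with 2 values a group, went from 1.27 and 1.57% to 10.2 and 8.93% at 4 h (adjusted p = 0.00536).

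Across members the change in level from 0 h to DMSO and the mean conversion with DMSO had a Spearman correlation of −0.114 at 2 h (n = 34 genes), −0.128 at 4 h (n = 31) and −0.152 at 8 h (n = 23). Pearson correlations were −0.17, −0.33 and 0.11, so the sign at 8 h depended on the measure. The points share libraries and read depth, and genes are not replicates.

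At 8 h 16 members had a conversion value in all 3 DMSO libraries. The highest was TAF1D, an SL1 subunit, at 13.1, 12.3 and 8.45%, against 5.52, 5.45 and 0.417% at 0 h (adjusted p = 0.00146). GTF2F2 and GTF2F1, the TFIIF pair, followed with means of 5.06% and 4.93%. GTF2A2 came next at 3.63, 3.41 and 4.37%, but it was already at 2.90, 3.12 and 2.33% at 0 h and was not called. Every TAF1D library lay above those of the other 3 genes, which overlapped one another.

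The lowest 4 of the 16 were among the 8 genes whose level rose under TMM scaling. The rest of those 8 were spread higher in the ranking. GTF2A2 was 4th with a mean of 3.80%, TAF9 5th with 3.40%, TAF6 8th with 1.67% and GTF3C6 12th with 0.415%. TAF9B was at 0.456, 0.052 and 0.233% conversion with DMSO at 8 h. TAF15 was at 0.0700, 0.236 and 0.346%. TAF10 was at 0.0240, 0.339 and 0.243%, and GTF3A at 0.0520, 0.221 and 0.243%. These 4 overlapped one another, and none was called in conversion at 8 h. TAF10 was called higher there without the 3 libraries that stood apart (0.202 points, adjusted p = 0.00341), without replicate 3 at 0 h (adjusted p = 0.0431) and without replicate 1 of DMSO at 8 h (adjusted p = 0.0387).

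The last comparison asked whether the CDK9 inhibitors lowered conversion of these genes below DMSO. At 8 h TAF9, the TFIIF genes GTF2F1 and GTF2F2, and GTF2E2 of TFIIE were lower with both compounds, and TAF1D with KI-ARv-03. KB742 lowered 4 of 23 members (17.4%), against 34.4% of all genes, and KI-ARv-03 5 of 23 (21.7%), against 36.6%. With values weighted by reads each compound lowered 5, against 29.6% and 33.5% of all genes called. The median difference at 8 h was −0.385 points over members and −0.541 over all genes with KB742, and −0.526 and −0.585 with KI-ARv-03. At 4 h KB742 lowered 4 of 30 members, against 17.3% of all genes, and KI-ARv-03 1 of 31, against 7.09%, or 7.15% in either direction. Weighted by reads these counts were 3 and 0, against 18.5% and 7.21% of all genes. At 2 h limma called 0 of 34 with KB742, against 0.843% of all genes, and 0 of 33 with KI-ARv-03, against 0.737%. At that time an unadjusted p under 0.05 was found for KB742 in 2 members, against 1155 of all 8070 genes. For KI-ARv-03 it was found in 5 members, against 1079 of all 8145 genes. Limma with values weighted by reads also called 0 members at 2 h, against 1.26% and 1.55% of all genes. No member was higher in conversion with a compound at any time, but hardly any gene was. At 2, 4 and 8 h limma called 0, 1 and 0 of all genes tested higher for KB742. The same counts for KI-ARv-03 were 0, 4 and 1, so the lack of higher members does not set them apart. The difference between a compound's 8 h and 2 h effects on conversion was called for 1 of 23 members with KB742, GTF2E2 (−2.99 points, adjusted p = 0.0318), against 4.57% of all genes. With KI-ARv-03 it was called for 0 of 23, against 5.35%. For it 3 of 23 members had an unadjusted p under 0.05, against 1194 of all 6189 genes. The GTF2E2 difference was not called without replicate 2 of KB742 at 2 h, one of the libraries that stood apart (−2.31 points, adjusted p = 0.0999), or with values weighted by reads (adjusted p = 0.0526).

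Without the 3 libraries that stood apart the counts were 6 at 4 h and 7 at 8 h with KB742, and 1, 4 and 9 at 2, 4 and 8 h with KI-ARv-03. The share of all genes called without libraries is not given here, so these counts do not set members against other genes. With KB742 at 4 h, leaving out a single library gave 1 (replicate 2 or 3 of DMSO, replicate 2 of KB742) or 2 (replicate 1 of DMSO, replicate 3 of KB742). With KB742 at 8 h it was 6 without its replicate 3. With KI-ARv-03 at 4 h it was 0 without replicate 1 or 2 of DMSO or its own replicate 3, and 3 without its replicate 1. The gene at 2 h was TAF9 (−1.35 points, adjusted p = 0.0301). The 3 added at 4 h with KI-ARv-03 were TAF9, TAF10 and TAF11, whose removed library held the highest conversion of its group.

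TAF9, the histone-fold partner of TAF6, was at 2.18, 3.53 and 4.47% conversion with DMSO at 8 h. It was at 0.728, 0.835 and 0.851% with KB742 and at 0.792, 0.124 and 0.692% with KI-ARv-03, all below every DMSO library. The difference was −2.59 points with KB742 (adjusted p = 0.000329) and −2.86 with KI-ARv-03 (adjusted p = 4.18e-05). The 8 h libraries held 202 to 624 TAF9 reads, the most of the 5 genes called at 8 h, and KB742 also lowered TAF9 at 4 h (1.02, 0.342 and 0.700% against 2.04, 1.85 and 1.82%, adjusted p = 0.0399). That call was lost on leaving out any library but replicate 1 of KB742 (−1.04 to −1.26 points, adjusted p = 0.0668 to 0.166). TAF9 shares its locus with AK6: a separate TAF9-labelled row, AK6 in RefSeq, held 16.0% as much CPM as the row used.

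GTF2F1, which encodes the large TFIIF subunit, was at 1.20, 6.79 and 6.82% conversion with DMSO at 8 h. It was at 0.831, 0 and 0.525% with KB742 and at 0.530, 1.15 and 0.410% with KI-ARv-03. Every compound library was below every DMSO library, and the differences were −4.48 points (adjusted p = 0.00125) and −4.24 points (adjusted p = 0.00759). Its partner GTF2F2 was at 3.50, 3.58 and 8.09% with DMSO, 0.814, 0.918 and 0.950% with KB742 and 0.660, 0 and 0.275% with KI-ARv-03. GTF2F2 differed by −4.16 points with KB742 (adjusted p = 0.00731) and by −4.74 with KI-ARv-03 (adjusted p = 0.00043). In level neither TFIIF gene was called by limma with TMM scaling at 8 h. The GTF2F1 call with KI-ARv-03 was lost without replicate 2 (−3.31 points, adjusted p = 0.0515) or 3 (−3.29 points, adjusted p = 0.0553) of DMSO, and the GTF2F2 call with KB742 without replicate 3 of DMSO (−2.65 points, adjusted p = 0.0721).

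GTF2E2, the small TFIIE subunit, was at 1.13, 4.35 and 2.34% conversion with DMSO at 8 h on 31, 38 and 25 reads. It was at 0, 0.111 and 1.00% with KB742 and at 0.461, 0 and 0.108% with KI-ARv-03, below DMSO in each library. The difference was −2.24 points with KB742 (adjusted p = 0.00778) and −2.42 with KI-ARv-03 (adjusted p = 0.00425). TAF1D was at 6.11, 1.53 and 4.00% with KI-ARv-03, below DMSO at 13.1, 12.3 and 8.45%, by −7.40 points (adjusted p = 0.00583). The GTF2E2 call with KB742 was lost without replicate 2 of DMSO (−1.36 points, adjusted p = 0.0695) or replicate 1 of KB742 (−2.05 points, adjusted p = 0.0538). With KB742 TAF1D was at 5.998, 3.22 and 9.41%, which overlapped DMSO (adjusted p = 0.0648, and 0.0310 with values weighted by reads).

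At 4 h GTF3C4 was at 14.98, 18.4 and 9.85% conversion with DMSO, at 3.44, 4.58 and 7.36% with KB742 and at 5.74, 10.1 and 3.61% with KI-ARv-03. KB742 lay below DMSO in every library (−9.27 points, adjusted p = 0.00291). KI-ARv-03 overlapped DMSO (−7.93 points, adjusted p = 0.0169), and the call was lost with values weighted by reads (adjusted p = 0.0756) and without replicate 1 or 2 of DMSO or replicate 3 of KI-ARv-03 (−5.95 to −7.64 points, adjusted p = 0.0562 to 0.134).

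GTF3C5, another TFIIIC subunit, was at 1.376, 2.71 and 2.86% with DMSO at 4 h and at 0.222, 0.160 and 0.321% with KB742 (−2.08 points, adjusted p = 0.0277). TAF7 was at 5.69, 4.33 and 5.90% with DMSO and at 3.81, 0.908 and 3.11% with KB742 (−2.70 points, adjusted p = 0.0489, and 0.0979 with values weighted by reads). For both genes the KB742 libraries lay below DMSO. The GTF3C5 call was lost without replicate 2 or 3 of DMSO or replicate 1 or 2 of KB742 (−1.81 to −2.07 points, adjusted p = 0.0725 to 0.0956). The TAF7 call was lost on leaving out any library but replicate 1 of KB742 (−1.85 to −3.18 points, adjusted p = 0.0517 to 0.299).

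**Figure D5:**
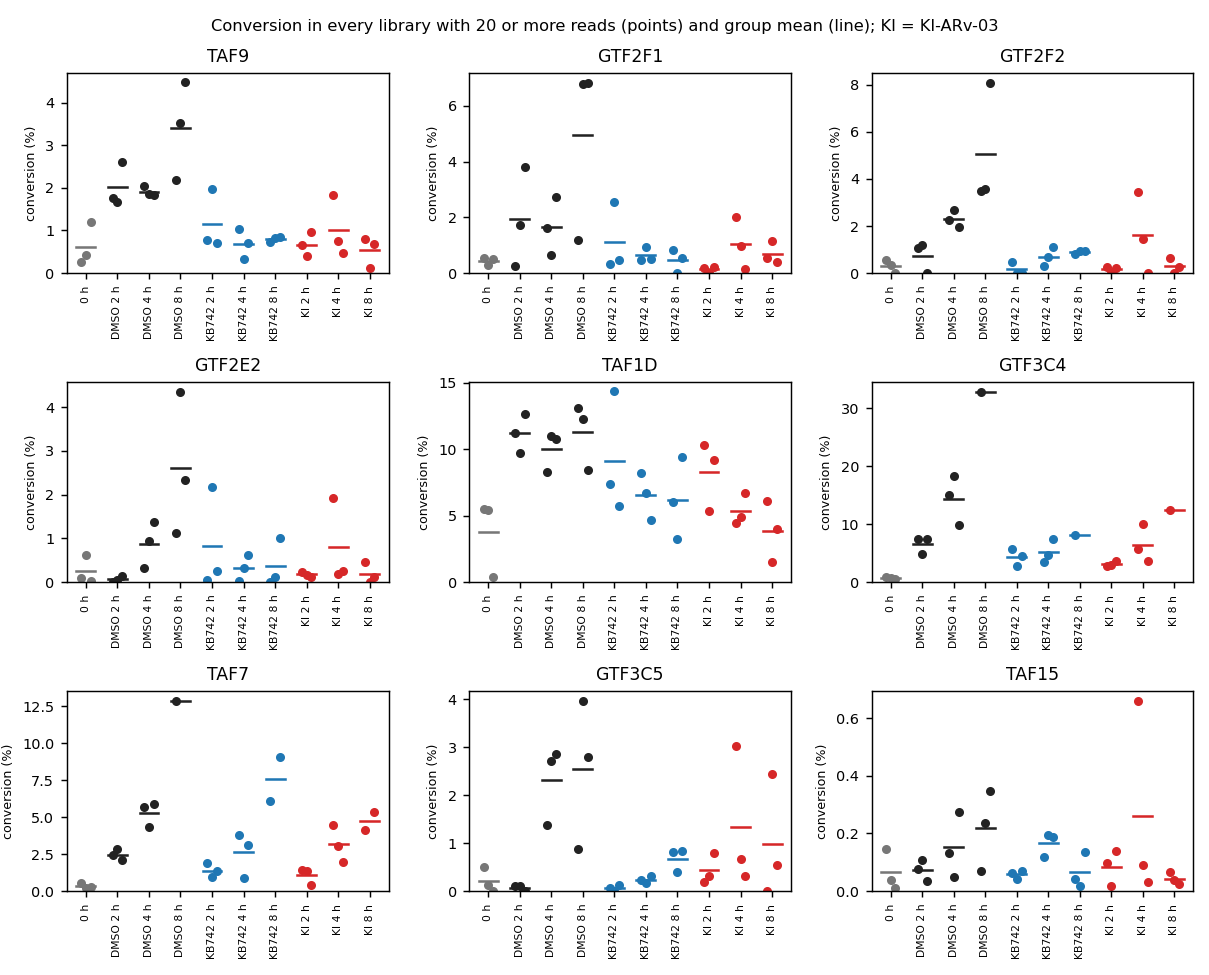
Conversion in percent (vertical axes, each from 0) of 9 members in each library with 20 or more reads, as points with group means as lines, over the 10 groups. TAF9, GTF2F1, GTF2F2 and GTF2E2 sit highest with DMSO at 8 h and lower with both compounds, and GTF3C4 and TAF7 have 1 value with DMSO at 8 h.

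Of the partner genes of these complexes, 31 were tested in level. With DMSO at 8 h 12 fell and 1 rose, against 29.2% and 20.1% of all genes. The genes that fell included both BRF genes of the RNA polymerase III factor TFIIIB, BRF2 (−3.10) and BRF1 (−2.29), CDK7, the kinase of TFIIH (−2.29), and RRN3, which recruits RNA polymerase I (−2.57). The 1 that rose, under TMM scaling, was TADA3 of SAGA (1.39). With the compounds 0 partners were called in level by limma at any time. An unadjusted p under 0.05 was held by 0, 1 and 2 of the 31 with KB742 at 2, 4 and 8 h and by 0, 2 and 3 with KI-ARv-03. Over all 11401 genes it was held by 352, 548 and 1580 with KB742 and by 340, 449 and 1944 with KI-ARv-03. In conversion at 8 h, KB742 lowered 3 of 12 partners, SNAPC5 (−2.84 points), SUPT20H (−1.77) and USP22 (−1.29), against 34.4% of all genes. KI-ARv-03 lowered 4 of 12, SNAPC5 (−2.78), SNAPC3 (−1.41), UBTF (−1.28) and USP22 (−1.02), against 36.6%.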

How the data were processed

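Per the submitters' processing notes the deposited table lists transcripts of RefSeq on hg19. Which aligner and conversion caller made it is not given in the sources used here. The members and lists were chosen with earlier results of these data known. Level is a signal that the authors headed CPM, in the deposited table, with columns that sum to 0.8404 to 1.3796 times a common total. All values (100%) were within 0.05 of whole multiples of 1 read, and reads were recovered on that basis. Conversion is a fraction that the authors computed and deposited. Rows without a name (847) held 0.478% of reads and were left out. Some marker genes are not reported here. A spike-in was added per the labels' protocols and was not used here.

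Each gene was represented by its messenger RNA row with the highest summed CPM. Of the members, 29 had more than 1 such row and 9 had rows that differed. Reads were scaled by TMM (edgeR 4.0.16), filterByExpr (minimum count 10) chose the genes, and log2(CPM + 1) was tested with limma 3.58.1 in R 4.3.3, with trended variances and 30 libraries in 1 fit. For conversion, limma took the arcsine of the fraction's square root, with the variance trend over reads. Values behind fewer than 20 reads were missing, and each group needed 2 values. P-values were Benjamini-Hochberg adjusted over all genes tested, at 0.05. On simulated data, with an assumed denominator and spread of the fraction, this conversion test made more false calls than its nominal rate. One with values weighted by reads (cap 500) did not. Neither rate is known for the real data, whose denominator is not given. The weighted test was therefore added after the data were seen. So was leaving out the 3 libraries that stood apart. Other alternatives were DESeq2 1.42.0, edgeR's quasi-likelihood test, other scalings, pseudocount 0.25, no filter, compared groups alone, 50 reads, a log2 scale, a replicate block and leaving out each library. Values are given in every library for members called with a compound, for the 4 highest and 4 lowest with DMSO at 8 h in each measure, and for TBP, GTF2B, ERCC2, ERCC3 and TAF1. TAF4, TAF5, TAF2, TAF8 and the other genes named with values were named to account for the calls. Intervals cover the spread between libraries. Scripts used Python 3.11.15, numpy 2.4.6, pandas 2.3.3 and matplotlib 3.10.9.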

Additional observations from a re-analysis of the deposited data

Results flagged for a closer look

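GTF2E2, the small subunit of TFIIE, differed in conversion between times under the same contrast. The KB742 effect at 8 h minus that at 2 h was −2.99 percentage points by an interaction term in limma (adjusted p = 0.0318), against 4.57% of all genes called. Its conversion with KB742 at 2 h was 0.0390, 2.17 and 0.242%, against 0, 0.0430 and 0.146% with DMSO, and at 2 h the groups overlapped and KB742 was not called. The 2.17% value came from the KB742 library that stood apart. Without that library the difference was −2.31 points (adjusted p = 0.0999), and without all 3 libraries that stood apart it was −2.31 (adjusted p = 0.0497). The call was also lost with values weighted by reads (adjusted p = 0.0526), on a log2 scale (0.208), with the compared groups alone (0.118), and without replicate 1 or 2 of DMSO at 2 h, replicate 2 or 3 of DMSO at 8 h, or replicate 1 or 2 of KB742 at 8 h (−2.12 to −3.12 points, adjusted p = 0.0546 to 0.116). For KI-ARv-03 limma called 0 members in the same interaction, against 5.35% of all genes. There 3 of 23 members had an unadjusted p under 0.05, against 1194 of all 6189 genes.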

How the results depend on the processing

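Among calls in level, GTF2A2 with DMSO at 8 h went from 0.75 to −0.04 with library-size scaling. The counts of members called moved by more than 1.5 times under these settings, and unless stated the cause was not tested. No share of all genes is given beside them, so they show only how far member calls depended on each setting. In level, DMSO at 2 h went from 2 to 1 with pseudocount 0.25, with edgeR and without the 3 libraries that stood apart. KI-ARv-03 at 8 h went from 4 to 2 without the filter on low counts, to 2 with the replicate block, to 1 in edgeR and to 0 with the compared groups alone, and KB742 at 8 h went from 2 to 0 in edgeR and with the compared groups alone. Fitting the compared groups alone leaves fewer libraries for the spread. In conversion, a minimum of 50 reads, which leaves fewer genes, gave 2 with KB742 at 4 h and at 8 h, 0 and 2 with KI-ARv-03 at 4 h and 8 h, 4 with DMSO at 4 h, 3 with DMSO at 8 h and 0 in the KB742 interaction. A log2 scale gave 0 with KB742 at 4 h, 0 and 3 with KI-ARv-03 at 4 and 8 h, 2 with DMSO at 2 h and 0 in the KB742 interaction. The compared groups alone gave 2 with KB742 at 8 h, 0 with KI-ARv-03 at 4 h, 2 with DMSO at 2 h, 0 in the KB742 interaction and 1 in the KI-ARv-03 interaction. Without the 3 libraries that stood apart there were 7 with KB742 at 8 h, 1, 4 and 9 with KI-ARv-03 at 2, 4 and 8 h and 1 in the KI-ARv-03 interaction. Values weighted by reads gave 0 with KI-ARv-03 at 4 h and 0 in the KB742 interaction.

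Leaving out each library in turn gave 1 to 1, 8 to 12 and 21 to 24 members called in level with DMSO at 2, 4 and 8 h, 0 to 2 with KB742 at 8 h, 1 to 4 with KI-ARv-03 at 8 h, and 0 to 0 in the other level comparisons. In conversion it gave 2 to 5, 5 to 7 and 5 to 10 with DMSO, 1 to 3 and 3 to 6 with KB742 at 4 and 8 h, 0 to 3 and 4 to 7 with KI-ARv-03 at 4 and 8 h, 0 to 2 in each interaction and 0 to 0 at 2 h. The counts in this paragraph, too, have no share of all genes beside them. Of the values of single members under alternatives, 448 stayed on their side of the threshold, 90 lost the call and 3 gained it. This total pools DMSO changes from 0 h, some never called, with the compound calls, and most losses were among the compound calls. TAF4B in level with KI-ARv-03 at 8 h lost 10 and kept 5, and TAF7 in conversion with KB742 at 4 h lost 10 and kept 2. GTF2A1 in level with KI-ARv-03 lost 1, TAF9 in conversion at 8 h lost 0 with each compound, and GTF2B with DMSO lost 0. Labels give groups the same replicate numbers. Of 27 same-numbered pairs, 7 had correlated deviations above 0.1 (range −0.361 to 0.451) and 7 correlated best with their own number. This did not show pairing, but deviations from means of 3 libraries cannot exclude it. With the replicate block the other counts stayed within 1.5 times: 2, 11 and 23 in level with DMSO, 2 with KB742 at 8 h, and in conversion 4, 7 and 9 with DMSO, 3 and 4 with KB742 and 1 and 5 with KI-ARv-03 at 4 and 8 h.

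Read depth limited conversion most: 23 of 52 members could be tested at 8 h, and GTF2B and TBP could not. Few reads also lay behind GTF2B, TBP, TAF4 and TAF5 in level at 8 h. Of the 6 compound calls in level, 5 were lost on leaving out some library.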
